A study of Homo sapiens with 12 samples.

Results

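SESN1, SESN2 and SESN3, DDIT4, TSC1, TSC2, AKT1S1, DEPTOR and RPTOR encode brakes on the kinase mTOR, except for RPTOR, which is an mTORC1 subunit. These 9 genes were followed among the 23195 genes that the deposited tables list for the Nutlin-3a comparisons. They were taken by gene name, and every one of the 9 was listed in all 4 tables. The names were chosen by their role with earlier log2 fold changes of these tables known, among them that SESN2 moved against other p53 targets and that DDIT4 was among the genes lowered most by siRFX7. The values of SESN2 are therefore a description without a test, and so is the loss of DDIT4 with siRFX7.

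PolyA RNA was sequenced from HCT116, an established human colorectal carcinoma line with wild-type p53. Transfection was with siControl, a control siRNA, or with siRFX7, which targets the transcription factor RFX7. Treatment was 24 h of 10 µM Nutlin-3a or of its solvent DMSO. Nutlin-3a blocks the binding of MDM2 to p53 and so stabilises p53. The 2 siRNAs and 2 treatments gave 4 groups of 3 libraries, all from 1 cell line and all transfected. The labels do not say whether replicates were separate cultures, nor how many siRNAs against RFX7 were used, so the errors given measure the spread between these libraries.

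mTORC1 is a kinase complex that promotes protein synthesis and growth when amino acids, growth factors and energy are sufficient. Sestrins restrain it through GATOR2 in the amino acid arm, and SESN2 also binds leucine. DDIT4, also called REDD1, acts through the TSC1-TSC2 complex, which switches off RHEB, the small GTPase that activates mTORC1. AKT1S1 (PRAS40) and DEPTOR bind the kinase complex and inhibit it, and RPTOR (Raptor) recruits its substrates. SESN1 and SESN2 are known p53 target genes, SESN2 and DDIT4 are also activated by ATF4 in amino acid and endoplasmic reticulum stress, and SESN3 is known as a FOXO target. DDIT4 and SESN3 have also been described as targets of RFX7.

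In the authors' deposited table for Nutlin-3a in siControl cells all 9 genes were called higher and none lower (adjusted p below 0.05), where 22% of all genes were called higher and 21.2% lower. In siRFX7 cells 8 were called higher and SESN3 was called lower, with 21.7% and 19.7% of all genes called in these directions. With siRFX7 in DMSO, SESN1 and AKT1S1 were called higher and SESN2, DDIT4 and TSC1 lower, where 13.5% and 15.5% of all genes were called. With siRFX7 in Nutlin-3a, SESN1 was called higher and SESN3, DDIT4 and DEPTOR lower, against 15% and 13.6% of all genes. The median log2 fold change of the 9 genes was 0.48, 0.42, -0.09 and -0.11 in these comparisons in turn, and the median of all genes listed was 0.02, -0.02, -0.0032 and 0.0022. The comparisons share groups in pairs, and the members were chosen with these values known, so the counts describe the genes and support nothing further. For Nutlin-3a the shares of all genes take in mean counts down to about 1, while SESN3, the lowest member, averaged 151. In siControl, 4334 genes with a mean of at least 100 were called higher with Nutlin-3a and 4131 lower. For siRFX7 under DMSO these counts were 2272 and 3108. Beside a given member, 12462 genes had such a mean, so the shares called were larger at that level in each comparison. The calls of SESN2, and of DDIT4 with siRFX7, restate values known at that choice and are no test. Requiring also an absolute log2 value of at least 0.58 kept 4, 4, 2 and 2 of the 9 genes called. Of all genes it kept 5198 of 23195, 4830 of 23195, 1547 of 20026 and 1482 of 19393.

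**Figure D1:**
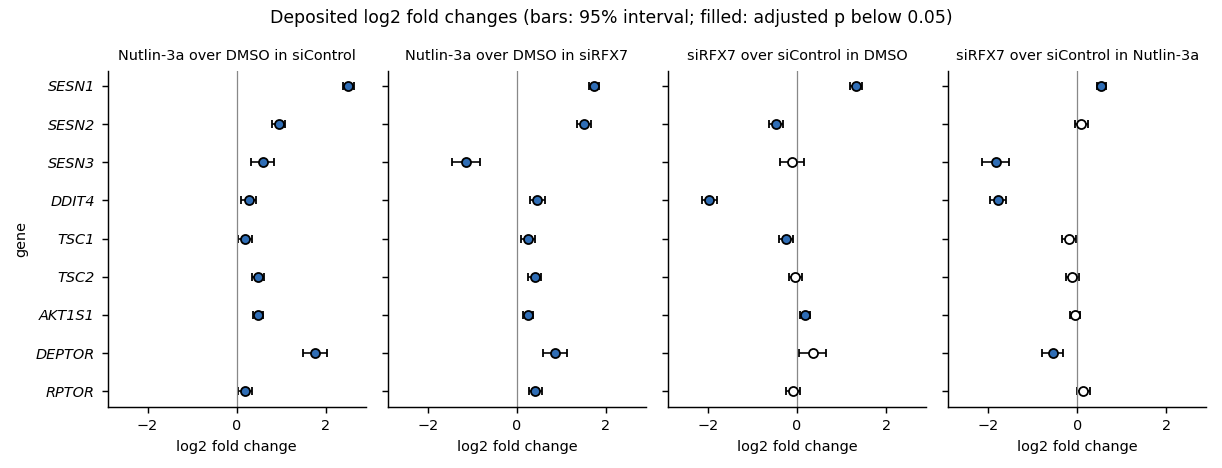
Deposited log2 fold changes of the 9 genes in the 4 comparisons, one panel each, with 95% intervals from the deposited standard errors. Filled points have an adjusted p below 0.05. The SESN2 points, and those of DDIT4 in the siRFX7 panels, are a description without a test. SESN3 changes side between the Nutlin-3a panels, from 0.58 in siControl to -1.15 in siRFX7, and DDIT4 lies at -1.97 and -1.78 in the siRFX7 panels.

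The tables hold statistics per comparison, so the level of a gene in each group was recovered from its mean normalized count and its fold changes, with a 95% interval from the errors of the authors' model. Mean normalized counts summed to 26801484. In recovered means, RFX7 itself fell with siRFX7 to 19.6% of siControl in DMSO and to 22.6% in Nutlin-3a (95% intervals 17.2% to 22.3% and 20.1% to 25.5%). The p53 target CDKN1A averaged 5493 normalized counts in DMSO and 121149 in Nutlin-3a with siControl. Of 8 epithelial markers fixed for the label, 6 were listed and 5 had a mean of at least 100, led by KRT8 at 80338, while CDX1 and LGALS4 were not listed and VIL1 had a mean under 10. With siControl the listed markers summed to 119044 normalized counts in DMSO and 268087 in Nutlin-3a, and with siRFX7 to 114435 and 212520. Of these markers KRT19, KRT8, KRT18 and CDH1 rose with Nutlin-3a under both siRNAs, led by KRT19 at 1.69 on the log2 scale in siControl, while EPCAM fell by 0.51 in siControl and by 0.63 in siRFX7. VIL1 was also called higher with Nutlin-3a in siRFX7. With siRFX7, 2 of the 6 were called higher and 1 lower in DMSO, and 2 and 3 in Nutlin-3a. KRT18 was the lowest there, at -0.41 in DMSO and -0.45 in Nutlin-3a. Of 10 markers of leukocytes, endothelium, fibroblasts and muscle, PTPRC, CD3E, CD68 and PECAM1 were not listed, and the highest was COL1A1 at 441. Those in all 4 tables summed to 430 normalized counts in DMSO and 388 in Nutlin-3a with siControl, and to 562 and 558 with siRFX7. COL1A1 rose with siRFX7 by 0.36 in DMSO and 0.52 in Nutlin-3a on the log2 scale, and PDGFRB, with a mean of 19.4 normalized counts, by 1.59 in DMSO and with Nutlin-3a in siControl by 1.46. The part of these markers in the members' values was not tested. In bulk RNA, fewer cells with a transcript and less of it per cell cannot be told apart.

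Per kilobase of annotated exon, DDIT4 was the most abundant of the 9 transcripts and SESN3 the least. The mean over the 4 groups was 2191 normalized counts per kb for DDIT4, at the 96.7th percentile of 13490 protein-coding genes. It was 619 for AKT1S1, 520 for SESN2, 406 for SESN1 and 355 for RPTOR. TSC2 at 87.6, DEPTOR at 63.1, TSC1 at 58.2 and SESN3 at 14.3 normalized counts per kb were lower, and SESN3 stood at the 16.3th percentile. Length decides part of this order. With exons of the GENCODE basic transcripts, SESN1 at 527 stood above SESN2 at 520 and RPTOR at 509, TSC2 stood at 242, and TSC1 at 100.3 passed DEPTOR at 64.4. SESN1 and SESN2 thus exchanged places with the lengths used, and RPTOR stood below both with either.

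SESN1 (ENSG00000080546, chromosome 6 from 108986437 to 109094819, minus strand, GRCh38) had the largest Nutlin-3a response of the 9 genes. With siControl its recovered mean was 476 normalized counts in DMSO (95% interval 443 to 510) and 2706 in Nutlin-3a (2568 to 2852). With siRFX7 it was 1196 in DMSO (1128 to 1267) and 3944 in Nutlin-3a (3748 to 4151). No interval overlaps another, and the level was higher with siRFX7 in either treatment. The authors' deposited DESeq2 tables give log2 fold changes with Nutlin-3a of 2.51 for siControl (standard error 0.06, adjusted p listed as 0) and 1.72 for siRFX7 (standard error 0.06, adjusted p 1.72e-200). These are 5.69-fold and 3.30-fold rises. By the authors' deposited tables, siRFX7 raised SESN1 2.51-fold in DMSO (95% interval 2.30 to 2.75) and 1.46-fold in Nutlin-3a (1.35 to 1.57).

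The smaller fold in siRFX7 cells did not mean a smaller gain in SESN1 transcripts. Nutlin-3a added 2231 normalized counts in siControl (95% interval 2085 to 2377) and 2748 in siRFX7 (2535 to 2961). The Nutlin-3a effects of the siRNAs differed, as siRFX7 minus siControl, by -0.79 on the log2 scale (standard error 0.09, adjusted p 3.02e-17 by a two-sided z test over all genes). The siRFX7 cells had the higher DMSO level, so the difference below 0 is one of ratios.

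SESN2 (ENSG00000130766, chromosome 1 from 28259527 to 28282491, plus strand) had a different pattern. With siControl its recovered mean was 1263 normalized counts in DMSO (95% interval 1171 to 1362) and 2422 in Nutlin-3a (2253 to 2604). With siRFX7 it was 911 in DMSO (843 to 985) and 2580 in Nutlin-3a (2400 to 2773). The intervals of the DMSO groups are apart, with siRFX7 the lower, and those of the Nutlin-3a groups overlap. By the authors' deposited tables SESN2 was 1.92-fold higher with Nutlin-3a in siControl (95% interval 1.73 to 2.13) and 2.83-fold higher in siRFX7 (2.55 to 3.15). For siRFX7 against siControl the authors' deposited tables put it at -0.47 on the log2 scale with DMSO and at 0.09 with Nutlin-3a (standard error 0.08 for each). As a difference of Nutlin-3a effects this is 0.56 (standard error 0.11, 95% interval 0.35 to 0.78). In added transcripts, SESN2 gained 1159 normalized counts in siControl (959 to 1359) and 1669 in siRFX7 (1469 to 1868), so the direction was the same on the count scale.

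SESN3 (ENSG00000149212, chromosome 11 from 95165513 to 95232541, minus strand) responded to Nutlin-3a in opposite directions under the 2 siRNAs. With siControl its recovered mean was 157 normalized counts in DMSO (95% interval 138 to 179) and 236 in Nutlin-3a (209 to 265). With siRFX7 it was 146 in DMSO (128 to 167) and 66.0 in Nutlin-3a (55.8 to 78.1). The DMSO groups overlap, while the Nutlin-3a groups are the highest and the lowest of the 4. By the authors' deposited DESeq2 tables SESN3 rose with Nutlin-3a by 0.58 on the log2 scale in siControl (standard error 0.13, adjusted p 3.32e-05) and fell by 1.15 in siRFX7 (standard error 0.16, adjusted p 2.89e-12). With siRFX7 its level was 92.9% of siControl in DMSO (95% interval 77.2% to 111.8%, not called) and 28.0% in Nutlin-3a (22.8% to 34.5%, adjusted p 5.35e-31 in the authors' deposited DESeq2 table). Its Nutlin-3a effects differed by -1.73 on the log2 scale (standard error 0.20, adjusted p 9.48e-15 by the z test). At these counts the authors' model gave SESN3 a coefficient of variation between replicates of 8.35% beyond counting error, against 4.22% for SESN1 and 6.07% for SESN2.

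Summed over the 3 sestrins, the level per kb with siControl was 473 in DMSO and 1252 in Nutlin-3a, and with siRFX7 it was 511 and 1524. Against siControl in DMSO the Nutlin-3a sums were 2.64 times as high for siControl and 3.22 times for siRFX7, while the makeup differed. SESN2 made up 77.2% of the sum in DMSO and 56.0% in Nutlin-3a with siControl, and 51.6% and 49.0% with siRFX7. SESN1 made up 19.6%, 42.2%, 45.7% and 50.6% in the same order. SESN3 held 3.14%, 1.78%, 2.70% and 0.410%. With the basic transcript lengths SESN1 held more of the sum, 24.0%, 48.6%, 52.1% and 57.0%, and was the larger share in both siRFX7 groups.

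**Figure D2:**
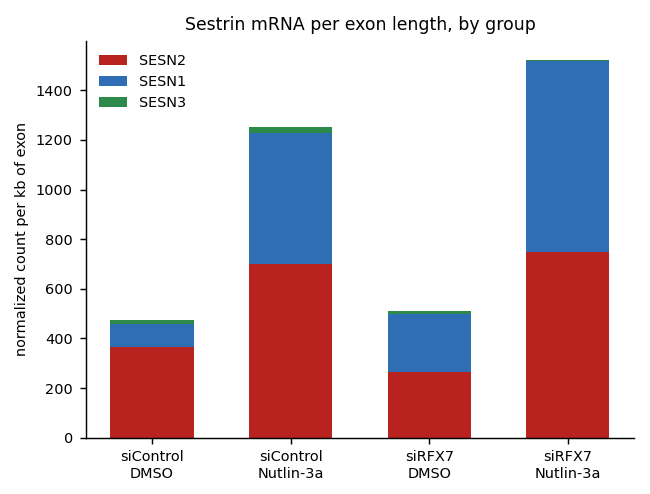
Recovered mean normalized count per kb of annotated exon, stacked for SESN2 (red), SESN1 (blue) and SESN3 (green) in each of the 4 groups. The stacks reach 473, 1252, 511 and 1524, and SESN1 grows from 19.6% of the stack in siControl DMSO to 50.6% in siRFX7 Nutlin-3a.

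DDIT4 (ENSG00000168209, chromosome 10 from 72273920 to 72276036, plus strand) differed more between the siRNAs than between the treatments. With siControl its recovered mean was 6416 normalized counts in DMSO (95% interval 5897 to 6981) and 7731 in Nutlin-3a (7106 to 8410). With siRFX7 it was 1638 in DMSO (1500 to 1788) and 2255 in Nutlin-3a (2068 to 2459). Both siControl groups lie above both siRFX7 groups. With siRFX7 the level was 25.5% of siControl in DMSO (22.6% to 28.8%) and 29.2% in Nutlin-3a (25.9% to 32.9%) by the authors' deposited tables, and in DMSO DDIT4 had the 30th lowest log2 fold change of 20026 genes. The authors' deposited DESeq2 tables give DDIT4 log2 fold changes with Nutlin-3a of 0.27 (standard error 0.09, adjusted p 0.00630) under siControl and 0.46 (standard error 0.09, adjusted p 1.77e-06) under siRFX7. They differed by 0.19 (95% interval -0.05 to 0.44, adjusted p 0.504 by the z test), so a difference beyond 0.44 on the log2 scale lies outside the interval. The same value separates the siRFX7 log2 fold changes of DDIT4 in DMSO and in Nutlin-3a, and its loss was known at the choice of members. The z test of DDIT4 is therefore not independent of that choice. The antisense gene DDIT4-AS1 covers 41.2% of the annotated exon bases of DDIT4, and the handling of strand is not given in the sources used here. DDIT4-AS1 had a mean of 11.1 normalized counts against 4510 for DDIT4, and its log2 fold changes with siRFX7 were -1.72 (standard error 0.58) in DMSO and -2.26 (standard error 0.63) in Nutlin-3a, per the authors' deposited tables. Reads of the pair cannot be told apart without strand.

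The sequences upstream of SESN1, SESN2 and DDIT4 are shown because p53, ATF4 and RFX7 are described to reach these genes, and their responses differed. RefSeq starts on GRCh38.p14 were matched by symbol for 7 of the 9 genes, in 10 windows of 300 bases, each from 250 bases before a start to 50 after it. AKT1S1 and DEPTOR had no entry. The 250 bases before the start are printed 5′ to 3′ on the gene's strand, with matches to the searched motifs in capitals. The start shown for SESN1 lies inside the gene and is the one of its 3 whose window holds matches, chosen after the search.

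SESN1, chr6:109008989-109009238, minus strand: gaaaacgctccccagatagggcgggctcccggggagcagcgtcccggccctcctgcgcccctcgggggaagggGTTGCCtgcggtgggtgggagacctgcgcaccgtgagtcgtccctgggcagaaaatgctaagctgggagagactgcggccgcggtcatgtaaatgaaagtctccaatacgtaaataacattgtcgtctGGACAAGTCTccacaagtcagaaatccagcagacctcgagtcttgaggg
SESN2, chr1:28259268-28259517, plus strand: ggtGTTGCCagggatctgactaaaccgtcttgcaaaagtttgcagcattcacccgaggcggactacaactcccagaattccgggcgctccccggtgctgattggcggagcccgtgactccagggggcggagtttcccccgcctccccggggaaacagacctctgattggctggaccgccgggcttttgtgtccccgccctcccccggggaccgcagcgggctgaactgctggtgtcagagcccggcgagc
DDIT4, chr10:72273674-72273923, plus strand: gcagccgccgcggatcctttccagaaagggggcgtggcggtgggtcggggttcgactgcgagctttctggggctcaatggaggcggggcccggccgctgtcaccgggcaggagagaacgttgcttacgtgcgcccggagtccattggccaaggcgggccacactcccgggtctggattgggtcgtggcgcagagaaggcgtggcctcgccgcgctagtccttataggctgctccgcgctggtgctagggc

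Motifs were searched on both strands in the 300-base windows. The RFX core GTTGCC was present in 12.2% of 35116 windows of all genes, and in 2 of the 10 windows of the members, at position -177 from the printed SESN1 start and at -247 from the SESN2 start. The decamer of the p53 response element was present in 6.63% of all windows and in 1 member window, as GGACAAGTCT at -49 from the same SESN1 start. The C/EBP-ATF response element TGATGNAA was present in 3.62% of all windows and in 1 member window, as TGATGCAA at -110 from a TSC2 start. The CRE core TGACGTCA was present in 1.85% of all windows and in none of the 10. The 250 bases before the SESN3 start are not printed. They reach into the annotated gene, from 95232541 to 95232476, as those of DDIT4 do from 72273920 to 72273923. The windows of SESN3 and of DDIT4, the members lowered most by siRFX7 in Nutlin-3a, held no match to any of the 4 motifs. That says that these letters are not in these windows and no more.

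TSC1 and TSC2 form the complex that inactivates RHEB. TSC2 rose with Nutlin-3a under both siRNAs, and the values of TSC1 were smaller. TSC1 (ENSG00000165699, chromosome 9) had recovered means of 1027 normalized counts in DMSO and 1170 in Nutlin-3a with siControl, and of 868 and 1031 with siRFX7. The authors' deposited DESeq2 tables give TSC1 a Nutlin-3a log2 fold change of 0.19 with siControl (adjusted p 0.0453) and 0.25 with siRFX7 (adjusted p 0.00675), and the call in siControl was lost when groups were rescaled to equal totals (adjusted p 0.0878) or centred on the median gene (adjusted p 0.0770). With siRFX7 its log2 fold change was -0.24 in DMSO (adjusted p 0.0125, or 0.0712 with equal totals) and -0.18 in Nutlin-3a (adjusted p 0.0726). TSC2 (ENSG00000103197, chromosome 16) had means of 1475, 2056, 1439 and 1904 normalized counts in the same order. By the authors' deposited DESeq2 tables TSC2 rose with Nutlin-3a by 0.48 on the log2 scale for siControl (standard error 0.07, adjusted p 4.43e-10) and 0.40 for siRFX7 (standard error 0.07, adjusted p 2.10e-07). With siRFX7, TSC2 was not called, at 97.5% of siControl in DMSO (88.2% to 107.9%) and 92.6% in Nutlin-3a (83.9% to 102.2%). The TSC2 value in DMSO changed sign with equal totals, from -0.04 to 0.02 on the log2 scale. The neighbours PKD1 and NTHL1 on the other strand cover 3.96% and 2.05% of the TSC2 exon bases.

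DEPTOR (ENSG00000155792, chromosome 8) had the second largest Nutlin-3a response in siControl, from a low level. With siControl its recovered mean was 83.1 normalized counts in DMSO (95% interval 71.3 to 96.8) and 281 in Nutlin-3a (251 to 314). With siRFX7 it was 106 in DMSO (91.8 to 122) and 192 in Nutlin-3a (170 to 216). The Nutlin-3a groups lie above the DMSO groups, and siRFX7 is the lower of the Nutlin-3a groups. By the authors' deposited DESeq2 tables DEPTOR rose with Nutlin-3a by 1.76 on the log2 scale for siControl (standard error 0.14, adjusted p 7.30e-35) and 0.86 for siRFX7 (standard error 0.14, adjusted p 2.24e-09). These effects differed by -0.90 on the log2 scale (standard error 0.20, adjusted p 0.000229 by the z test), and the gain was 198 normalized counts in siControl (164 to 232) and 85.8 in siRFX7 (58.2 to 113). DEPTOR fell with siRFX7 in Nutlin-3a by 0.55 on the log2 scale (adjusted p 5.80e-05), and in DMSO its log2 fold change was 0.35 (adjusted p 0.0720) in the authors' deposited DESeq2 tables. The DMSO value passed the threshold with equal totals (adjusted p 0.0310) and with median centring (adjusted p 0.0449).

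AKT1S1 (ENSG00000204673, chromosome 19) had recovered means of 2922 normalized counts in DMSO and 4052 in Nutlin-3a with siControl, and of 3308 and 3913 with siRFX7. Per the authors' deposited DESeq2 tables, AKT1S1 rose with Nutlin-3a by 0.47 on the log2 scale for siControl (adjusted p 2.65e-16) and 0.24 for siRFX7 (adjusted p 5.30e-05). The difference between these effects was -0.23 (standard error 0.08, adjusted p 0.0562 by the z test), and it passed the threshold in 4 of the 6 alternatives, with adjusted p-values from 0.0220 to 0.0419. TBC1D17 on the other strand covers 6.83% of the AKT1S1 exon bases. RPTOR (ENSG00000141564, chromosome 17) had means of 3379 and 3855 normalized counts with siControl, and of 3171 and 4233 with siRFX7. By the authors' deposited DESeq2 tables RPTOR rose with Nutlin-3a by 0.42 on the log2 scale for siRFX7 (adjusted p 3.85e-07), and its 0.19 for siControl (adjusted p 0.0342) lost the call with equal totals (adjusted p 0.0704). The difference between the effects was 0.23 (95% interval 0.01 to 0.44, adjusted p 0.269 by the z test). Of the 8 members other than SESN2, the difference was called below 0 for SESN1, SESN3 and DEPTOR and above 0 for none, where 2.92% of all genes were called below and 3.28% above 0.

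**Figure D3:**
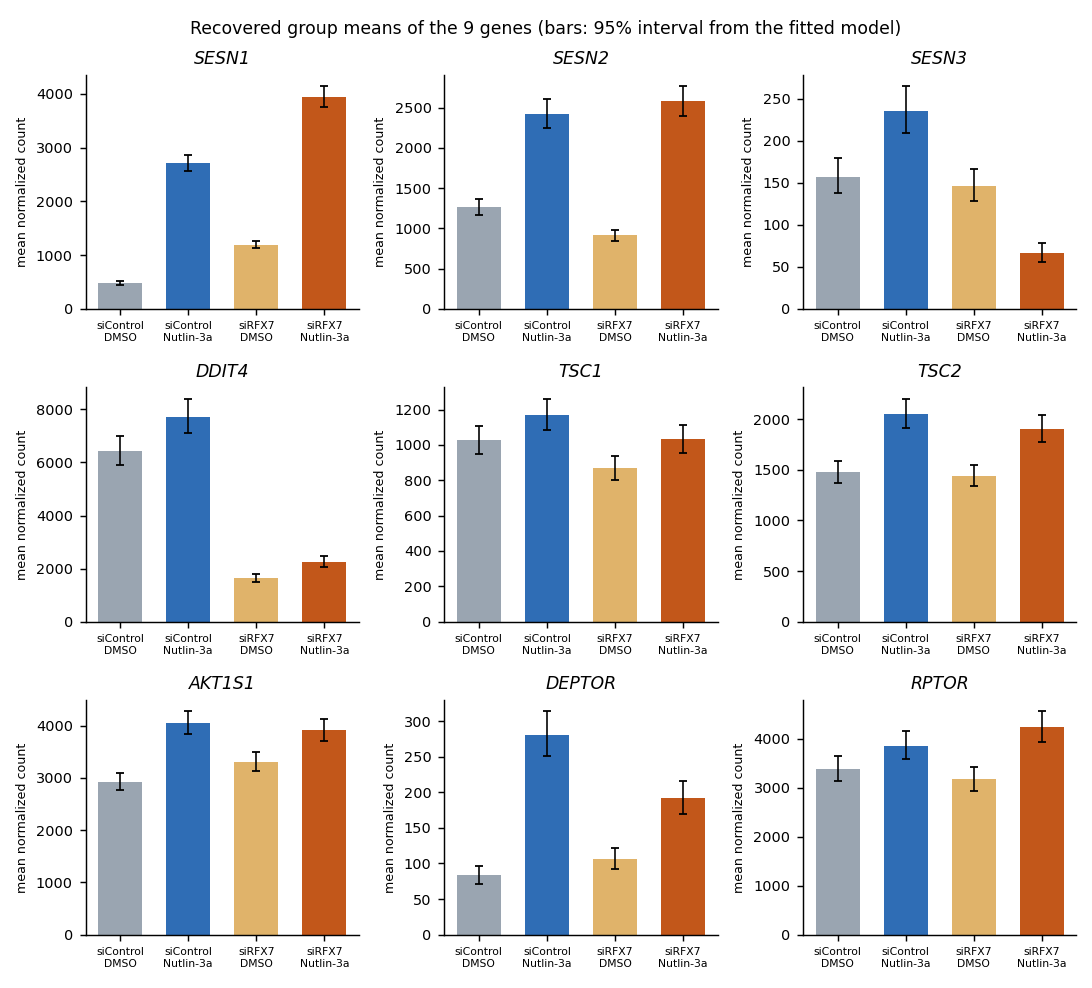
Recovered group means in normalized counts for each of the 9 genes, with 95% intervals from the fitted model, by siRNA and treatment. Axes start at 0 and differ between genes. DDIT4 separates by siRNA (6416 and 7731 against 1638 and 2255), SESN1 by treatment and siRNA, and SESN3 is lowest, at 66.0, in siRFX7 Nutlin-3a.

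The stress-induced members were set beside lists of p53-activated genes, of genes activated by ATF4 and of genes described as RFX7 targets, each without the 9 members. The study behind these tables may have helped to define the RFX7 list, which is no independent evidence. Of all genes, 13.5% were called higher and 15.5% lower with siRFX7 in DMSO. With siRFX7 in DMSO, 19 of 22 p53-activated genes rose and GDF15 alone fell, with a list median log2 fold change of 0.63, per the authors' deposited table. SESN1 at 1.33 lay on the side of that list, below its highest value (TP53I3 at 1.58). SESN2 at -0.47 lay close to GDF15 at -0.50 (standard error 0.08), the lowest of the 22. Of 13 listed ATF4-activated genes, 11 fell and ATF5 rose with siRFX7 in DMSO, with a median of -1.46. DDIT4 at -1.97 and SESN2 at -0.47 lay on the side of the falling genes, whose lowest value was that of CHAC1 at -2.29. The ATF4 transcript itself had recovered means of 14166 normalized counts in DMSO and 5128 in Nutlin-3a with siControl, and of 6895 and 4717 with siRFX7. With siRFX7 the authors' deposited tables put it at -1.04 in DMSO and, not called, at -0.12 with Nutlin-3a.

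In Nutlin-3a the ATF4 list was closer to 0 with siRFX7, with 6 of 13 genes lower, 2 higher and a median of -0.23, while DDIT4 stayed at -1.78. Of all genes, 13.6% were called lower and 15% higher there. The RFX7 list had 14 of 14 genes lower there, with a median of -0.99 and a lowest value of -3.01 for MXD4, an antagonist of MYC. SESN3 at -1.84 and DDIT4 lay within the range of that list. In DMSO 8 of the 14 RFX7 genes fell and 1, TOB1, rose, with a median of -0.24 and a lowest value of -1.07 for TSPYL2. DDIT4 at -1.97 lay below all 14 of them in DMSO, and SESN3 at -0.11 lay within their range. The part of ATF4 or of p53 in these values was not tested.

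With Nutlin-3a in siControl, 22 of 22 p53-activated genes rose (median 2.08), 11 of 13 ATF4-activated genes fell and 2 rose (median -1.86), and 13 of 14 RFX7 genes rose (median 1.13), by the authors' deposited table. Under siRFX7 21 of 22, 2 of 13 and 7 of 14 rose and 0, 8 and 3 fell, with medians of 1.46, -0.49 and 0.29. Of all genes, 22% were called higher and 21.2% lower under siControl, and 21.7% and 19.7% under siRFX7. SESN2 and DDIT4 rose in both while most of the ATF4 list fell. That difference of effects was called below 0 for 17 of the 22 p53-activated genes and above 0 for none, with a range from -1.32 to -0.0026, so SESN2 at 0.56 lay above all 22. PRKAB1, a known p53 target outside these 22, also differed upwards, by 0.39 (adjusted p 0.0131 by the z test). The value of SESN2 was known at the choice of members. Of all genes, the difference was called below 0 for 2.92% and above 0 for 3.28%. It was called above 0 for 10 of 13 ATF4-activated genes and below 0 for none, with a range from -0.24 to 2.49 that holds both SESN2 and DDIT4. It was called below 0 for 11 of 14 RFX7 genes and above 0 for none, and SESN3 at -1.73 lay within their range, which began at -2.01.

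**Figure D4:**
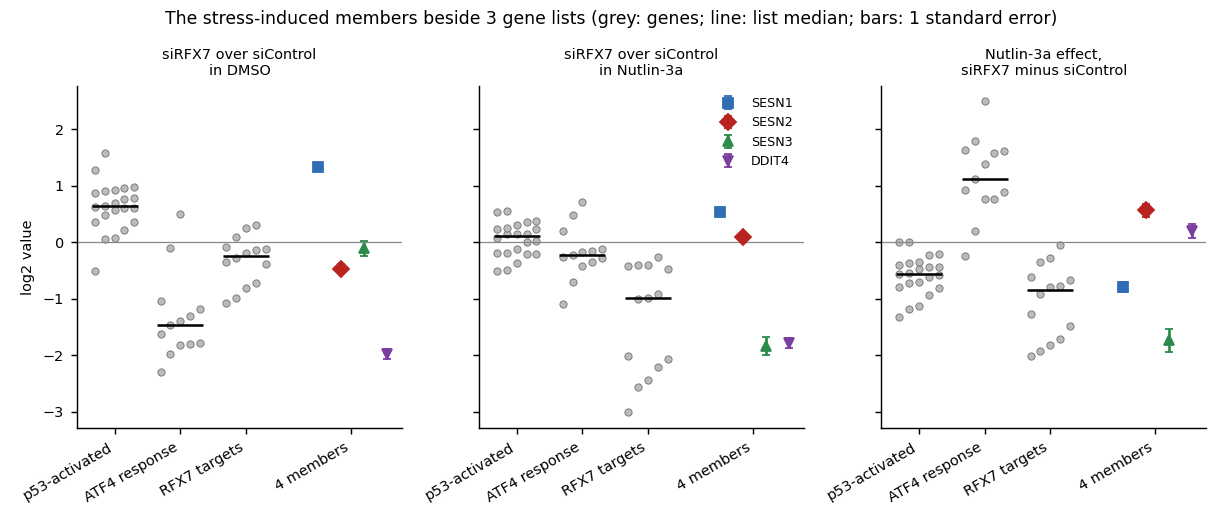
Log2 values of the genes of 3 lists (grey points, with the list median as a line) and of SESN1, SESN2, SESN3 and DDIT4 (coloured, with 1 standard error) for siRFX7 over siControl in DMSO and in Nutlin-3a and for the difference between the Nutlin-3a effects. SESN2 lies at -0.47, 0.09 and 0.56, and DDIT4 at -1.97, -1.78 and 0.19.

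The rest of the pathway was read from 6 lists that leave out the 9 members. With Nutlin-3a, 22% of all genes were called higher and 21.2% lower in siControl, and 21.7% and 19.7% in siRFX7. The list counts were not tested against these shares, which are over all genes listed, those of low count included. Of 9 other subunits and assembly factors of mTORC1 and mTORC2, 2 rose and 4 fell with Nutlin-3a in siControl (median -0.06 on the log2 scale, all values from the authors' deposited tables). The largest called rise was that of PRR5, an mTORC2 subunit, at 0.43, and the largest called fall that of TTI1, an assembly factor of mTOR and related kinases, at -1.17. In siRFX7 cells 2 rose and 3 fell, led by TELO2, the partner of TTI1, at -1.01. Of 27 listed genes of the amino acid arm, 9 rose and 3 fell in siControl and 10 rose and 5 fell in siRFX7, with medians of 0.04 and 0.14. CASTOR2, an arginine sensor paralog with the largest called rise, rose by 1.22 in siControl and 0.73 in siRFX7. FNIP2, a folliculin partner, was lowest in siControl at -1.13 and WDR24, a GATOR2 subunit, in siRFX7 at -0.79.

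Of 12 genes of the TSC, RHEB and AMPK arm, 5 rose and 3 fell with Nutlin-3a in siControl, and 5 rose and 4 fell in siRFX7 (medians 0.12 and 0.04). PRKAB1, a regulatory subunit of the energy sensor AMPK and a known p53 target, rose by 1.15 and 1.54, and its difference between siRNAs was 0.39 (adjusted p 0.0131 by the z test). PRKAG1, another AMPK subunit, had a difference of -0.34 (adjusted p 0.00768 by the z test). These were the only calls of the difference in that list, 1 in each direction. The difference was called below 0 for 2.92% and above 0 for 3.28% of all genes. RHEB, on which TSC2 acts, fell by 0.89 in siControl and by 0.70 in siRFX7 on the log2 scale. Among 14 genes of the PI3K and AKT arm, 7 rose and 2 fell under each siRNA (medians 0.25 and 0.27). PIK3R3, a regulatory PI3K subunit, rose by 1.13 in siControl and fell by 0.56 in siRFX7 on the log2 scale, and its difference between siRNAs of -1.69 (adjusted p 1.80e-08 by the z test) was the single call of that list. IGF1R, the receptor for insulin-like growth factors, had the largest called rise in siRFX7, 1.23.

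Of 10 other PI3K and AKT brakes, 6 rose and 4 fell with Nutlin-3a in siControl and 5 rose and 3 fell in siRFX7, with medians of 0.45 and 0.25. INPP5D, a phosphatase of the PI3K product, rose by 4.06 (standard error 0.17) in siControl and 1.66 (standard error 0.11) in siRFX7. TRIB3, a pseudokinase that binds AKT and an ATF4 target, fell by 1.90 in siControl on the log2 scale, and PHLPP1, a phosphatase of AKT, was the lowest in siRFX7 at -0.65. The difference between the effects was -2.40 for INPP5D and 1.63 for TRIB3, the largest of 2 calls in each direction among the 10. Over all genes it was called below 0 for 2.92% and above 0 for 3.28%. Of 13 genes listed as mTORC1 outputs, 7 rose and 4 fell in siControl and 4 rose and 2 fell in siRFX7, with medians of 0.23 and -0.06. These are transcript levels, and protein, phosphorylation and mTORC1 activity were not measured here. PDCD4, an inhibitor of translation initiation that S6 kinase marks for degradation, had the largest called rise in siControl, from 885 to 2032 normalized counts. TFEB, a lysosomal transcription factor held in the cytoplasm by mTORC1, rose by 0.93 in siRFX7. EIF4EBP1, a translation repressor that mTORC1 inactivates, fell by 1.04 in siControl and by 0.50 in siRFX7 on the log2 scale.

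With siRFX7 in DMSO, 1 of 9 mTOR complex genes rose and 2 fell, 4 of 27 amino acid arm genes rose and 3 fell, and 3 of 12 TSC, RHEB and AMPK genes rose and 2 fell, with medians of -0.16, 0.05 and 0.09. In the PI3K and AKT arm 1 of 13 listed genes rose and 4 fell (median -0.08), of the PI3K and AKT brakes 4 of 10 rose and 3 fell (median 0.10), and of the mTORC1 outputs 2 of 13 rose and 5 fell (median -0.06). INPP5D at 2.62 and TRIB3 at -1.81 were the extreme brakes in DMSO, and EIF4EBP1 at -0.82 the lowest output. In Nutlin-3a the counts higher and lower were 1 and 2 of 9, 5 and 3 of 27, 3 and 2 of 12, 1 and 3 of 13, 0 and 1 of 10, and 2 and 5 of 13 in the same order. The medians there were -0.02, 0.04, 0.18, -0.04, 0.12 and -0.05. Of all genes, 13.5% were called higher and 15.5% lower with siRFX7 in DMSO, and 15% and 13.6% in Nutlin-3a. In Nutlin-3a PDCD4 fell by 2.06 (standard error 0.08) and PIK3R3 by 1.14 on the log2 scale. The single lower brake was PIK3IP1, a PI3K inhibitor, with 7.41 normalized counts in siRFX7 against 29.7 in siControl (adjusted p 0.000380 in the authors' deposited DESeq2 table). PDCD4 and PIK3IP1 also stand in the list of RFX7 targets, TRIB3 in that of ATF4 and PHLDA3 in that of p53.

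**Figure D5:**
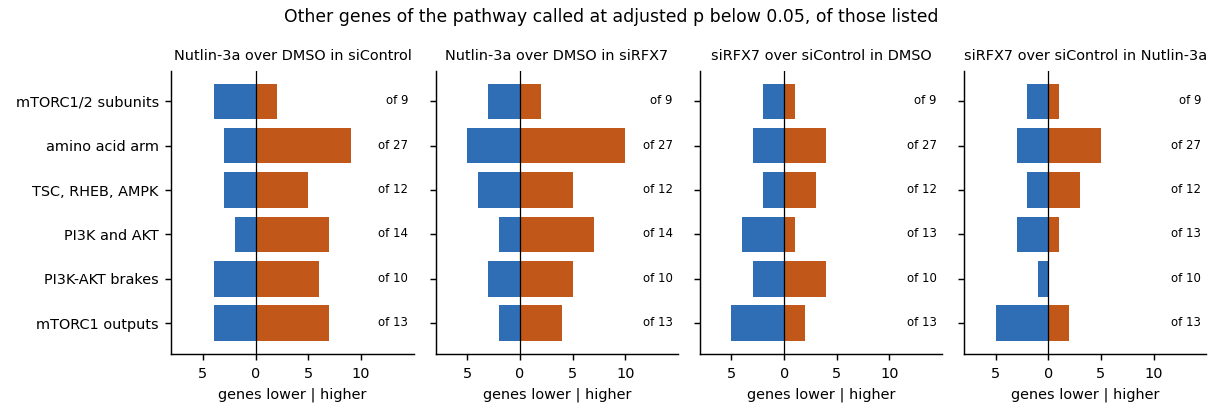
Number of genes called lower (blue, to the left) and higher (orange, to the right) by the authors' deposited tables (adjusted p below 0.05), for 6 lists of the pathway without the 9 members, with the number listed at the right of each panel. In the Nutlin-3a panels 9 and 10 of the 27 amino acid arm genes are higher, and in the last panel PIK3IP1 is the single brake called. Of all genes, 22%, 21.7%, 13.5% and 15% were called higher in panel order, and 21.2%, 19.7%, 15.5% and 13.6% lower.

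Among 5 relatives and redox partners of the members, 4 were listed. DDIT4L, the paralog of DDIT4, did not follow it: DDIT4L rose with siRFX7 in DMSO by 0.69 on the log2 scale (standard error 0.11), and fell with Nutlin-3a by 0.45 in siControl and by 0.99 in siRFX7, by the authors' deposited tables. SQSTM1, an autophagy receptor and sestrin partner, rose with Nutlin-3a by 0.33 and 0.34. SRXN1, a sulfiredoxin, had a log2 fold change of -0.34 with siRFX7 in DMSO (adjusted p 0.0489 in the authors' deposited DESeq2 table).

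The genes with the most similar pattern were found over the 4 group means, as the root mean square difference of log2 deviations, among 12462 other genes with a mean of at least 100. For SESN1 they were SYNC at 0.04, GRHL3 at 0.06 and LTBP2 at 0.13. For SESN2 they were FAM84B at 0.04, EOMES at 0.09 and UBASH3B at 0.09. For SESN3 they were NR4A2 at 0.26, ZNF608 at 0.28 and RPS6KA5 at 0.28, so no gene matched its pattern as closely. For DDIT4 they were B4GALT3 at 0.16, RFX7 at 0.22 and MPG at 0.28. RFX7 is the gene that siRFX7 targets, and DDIT4 was chosen with its loss under siRFX7 known. The nearness of DDIT4 to RFX7 restates that and is no test. B4GALT3 had recovered means of 1491, 1702, 477 and 513 normalized counts, against 6416, 7731, 1638 and 2255 for DDIT4. The likeness rests on 4 points that share their libraries.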

How the data were processed

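RNA from 12 libraries was made into libraries from 500 ng of total RNA, per the labels. The submitters' processing notes name hg38, Trimmomatic 0.39, featureCounts 1.6.5 and DESeq2 1.20.0 without their roles, and the aligner and the handling of strand are not given in the sources used here. The values came from 4 tables of group comparisons deposited by the authors, so the planned fallback for tables of statistics was followed. The mean normalized count is a signal per the file headers, fold changes and their standard errors are deposited as log2 values, the statistic is a score equal in the deposited tables to their ratio, and the p-value and adjusted p-value are the authors' own. The adjusted p-values equal a Benjamini-Hochberg adjustment over the genes each deposited table lists. Tables of the siRNA comparison were taken as siRFX7 relative to siControl, since the 4 log2 fold changes then close to within 1.27e-14, and otherwise with a median error of 0.374.

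Group means were solved from the mean over 4 equal groups and the log2 fold changes of 19393 genes in all tables. Their intervals use the dispersion recovered from the standard errors with size factors taken as 1. The difference between Nutlin-3a effects was tested by a two-sided z test, adjusted by Benjamini-Hochberg over 23195 genes, which takes the standard errors as known. Calls are at an adjusted p below 0.05. The scripts (Python 3.11.15, numpy 2.4.6, scipy 1.17.1) were tested on simulated data. Exon lengths and coordinates are from GENCODE release 29 (GRCh38), which held 23164 of the 23195 gene IDs, and promoters from RefSeq (GRCh38.p14). The members, the 12 gene lists and the rules were chosen with earlier results of these data known. The rule named all 9 members, RFX7, MDM2 and CDKN1A, the gene with the largest change called in each direction per list and comparison, and for SESN1, SESN2, SESN3 and DDIT4 the 3 genes of most similar pattern. Depth per library is unknown. Some genes that this rule names are not reported here.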

Additional observations from a re-analysis of the deposited data

Results flagged for a closer look

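The effect of Nutlin-3a differed between siRFX7 and siControl cells by the z test for 3 of the 8 members tested, and each result is given for that reason. Of all genes, 2.92% were called below 0 and 3.28% above, and the members were chosen with earlier results of these data known. Among the genes with a mean of at least 100, as all members have, 689 were called below 0 and 915 above, which are larger shares. The difference, siRFX7 minus siControl, was -0.79 for SESN1, -1.73 for SESN3 and -0.90 for DEPTOR on the log2 scale. SESN3 moved in opposite directions under the 2 siRNAs, while SESN1 and DEPTOR rose under both. For SESN1 the gain in normalized counts was larger in siRFX7, at 2748 against 2231, and for DEPTOR it was smaller, at 85.8 against 198. One siRNA treatment was compared with 1 control siRNA, so an effect of RFX7 loss and another effect of that treatment cannot be told apart.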

How the results depend on the processing

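A minimum absolute log2 value of 0.58 moved the members called from 9 to 4 for Nutlin-3a in siControl, from 9 to 4 for Nutlin-3a in siRFX7, from 5 to 2 for siRFX7 in DMSO and from 4 to 2 for siRFX7 in Nutlin-3a. The other 26 counts over the 6 alternatives stayed within 1.5 times. The counts of the 4 deposited comparisons include SESN2, and DDIT4 with siRFX7, whose values are a description without a test. Of 270 values of single members under the alternatives, 240 kept their direction and call, 23 lost a call, 6 gained one and 1 reversed, TSC2 with siRFX7 in DMSO, at 0.0206 with equal totals. The SESN2 difference has no call and stands among the 240, since it moved by less than 1 standard error under each alternative. Equal totals turned the calls of siRFX7 in DMSO over all genes from 2704 higher and 3107 lower to 3391 and 2262, and those of the difference from 760 and 677 to 583 and 792. A minimum of 0.58 left 1547 and 1482 genes for siRFX7 in DMSO and in Nutlin-3a, 5198 and 4830 for Nutlin-3a in siControl and in siRFX7, and 544 for the difference. A threshold of 0.01 left 863 genes for the difference. The basic transcript lengths were added after the data were seen. No paired analysis was possible because the tables hold group statistics without values per library, and leaving out a replicate was not run for the same reason. SESN3 and DEPTOR, the members with the lowest mean counts, had the largest standard errors on the log2 scale.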
